A study of Homo sapiens with 54 samples.

Results

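The genes described here are YAP1, WWTR1 (which codes for the protein TAZ), the 4 TEAD genes TEAD1, TEAD2, TEAD3 and TEAD4, and 4 genes long used as readouts of the pathway, CCN1, CCN2, ANKRD1 and AMOTL2. They are 10 of 19974 protein-coding genes and were taken by name, not by a measured value. All 10 were among the 16816 genes with enough peak-covered sequence to be tested. Chromatin accessibility had been measured by bulk ATAC-seq, in which a transposase cuts open DNA and the cut sites pile up into peaks. The cells were PC3, a human prostate cancer line, and MDA-MB-231, a human breast cancer line. Each line was sampled untreated and as the cells that survived cisplatin, a DNA-crosslinking drug, 1 day and 10 days after the drug was removed. The 6 groups are therefore untreated PC3, PC3 survivors at day 1, PC3 survivors at day 10, untreated MDA-MB-231, MDA-MB-231 survivors at day 1 and MDA-MB-231 survivors at day 10. Each group had 3 biological replicates, and each of these had been divided into 3 libraries ahead of tagmentation, giving 54 samples but 18 peak lists, 1 per biological replicate. The labels give no cisplatin dose and no surviving share, and selection of cells and a response of cells cannot be told apart in these groups. The study used 1 established line for each cancer.

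YAP and TAZ are transcriptional coactivators that do not bind DNA themselves. The Hippo kinases MST activate the LATS kinases, which phosphorylate YAP and TAZ and hold them in the cytoplasm. When the kinases are inactive they enter the nucleus and bind TEAD factors, which recognise the sequence GGAATG, often at enhancers that also carry sites for AP-1 factors. CCN1 and CCN2 code for secreted matricellular proteins and ANKRD1 for an ankyrin-repeat protein known from heart muscle. AMOTL2 codes for a junction protein of the angiomotin family that binds YAP and restrains it, so it is both a target and an inhibitor. Accessibility at these genes measures neither their RNA nor YAP activity.

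The 250 bases before the annotated start are shown for CCN2, ANKRD1 and YAP1, because they hold TEAD motif matches and lie under the accessible start regions described later. They are RefSeq promoter sequences of build GRCh38.p14, written 5′ to 3′ on the strand of the gene, with the matches to GGAATG (TEAD) and TGANTCA (AP-1) in capitals. The CCN2 sequence is the minus strand of chr6:131951373-131951622, the ANKRD1 sequence the minus strand of chr10:90921088-90921337, and the YAP1 sequence the plus strand of chr11:102110197-102110446.
CCN2: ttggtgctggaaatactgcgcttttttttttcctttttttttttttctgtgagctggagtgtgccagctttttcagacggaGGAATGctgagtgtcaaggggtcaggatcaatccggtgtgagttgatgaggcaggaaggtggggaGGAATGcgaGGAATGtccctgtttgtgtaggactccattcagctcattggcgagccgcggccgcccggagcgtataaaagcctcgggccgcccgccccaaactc
ANKRD1: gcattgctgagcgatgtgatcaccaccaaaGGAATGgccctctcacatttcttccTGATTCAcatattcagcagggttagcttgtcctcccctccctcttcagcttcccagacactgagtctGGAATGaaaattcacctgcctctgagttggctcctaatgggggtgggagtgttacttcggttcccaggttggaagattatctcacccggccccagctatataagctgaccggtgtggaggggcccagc
YAP1: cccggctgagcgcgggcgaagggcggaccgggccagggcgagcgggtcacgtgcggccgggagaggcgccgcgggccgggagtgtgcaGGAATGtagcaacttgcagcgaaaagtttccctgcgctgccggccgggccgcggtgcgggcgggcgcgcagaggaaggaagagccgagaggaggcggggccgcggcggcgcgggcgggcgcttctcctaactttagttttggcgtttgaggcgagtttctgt
CCN2 held 3 copies of GGAATG, whose first bases lay 169, 104 and 95 bases before the start. ANKRD1 held 2 copies, at 220 and 128 bases, and TGATTCA at 195 bases. YAP1 held 1 copy, at 162 bases. Both motifs were searched on both strands, and the printed matches do not overlap. Of 35116 RefSeq promoters of the same length, 11.9% held GGAATG on either strand at least 1 time, 0.940% at least 2 times and 0.0826% at least 3 times, while 6.57% held TGANTCA. The promoter table had 10 entries for 7 members and none for TEAD1, TEAD4 and CCN1. AMOTL2 had 1 match at its second listed start, CATTCC at 69 bases, and WWTR1, TEAD2 and TEAD3 had neither motif in these windows. The ANKRD1 and YAP1 sequences lay wholly under peaks in all 18 lists, and at least 240 of the 250 CCN2 bases did. A match describes letters and is not a site of binding.

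Covered length means the bases under peaks in a gene body and the 10 kb on each side of it. The lists held 82392 to 165535 peaks covering 54.4 to 82.3 Mb. They carry no read counts, so depth is unknown. Untreated lists held the fewest peaks in each line, with 106577 to 114731 peaks in PC3 and 82392 to 98777 in MDA-MB-231. By covered length the MDA-MB-231 groups overlapped, with 54.4 to 70.9 Mb untreated, 67.4 to 75.2 Mb at day 1 and 58.4 to 71.1 Mb at day 10. Untreated PC3 lists covered 62.1 to 67.0 Mb, below the 76.5 to 81.3 Mb of day 1 and the 69.8 to 82.3 Mb of day 10. In 5 of 6 groups the replicate 1 list had narrower peaks, with a median width of 320 to 365 bp against 401 to 592 bp in the other 13 lists. In MDA-MB-231 the median width also fell from untreated to day 1 to day 10 in each replicate number. Untreated lists 1, 2 and 3 had 365, 592 and 587 bp. Those of day 1 had 350, 522 and 459 bp, and those of day 10 had 333, 422 and 401 bp. PC3 lists had 435, 455 and 429 bp untreated. They had 346, 541 and 455 bp at day 1 and 320, 421 and 480 bp at day 10. List length was varied by other scalings and by cutting every list to its 50000 peaks of highest area or to its upper 50%. The part of peak width was not tested. Each list was scaled so that all lists cover the same total, and values in kb are on that scale. HOXB13, a prostate lineage factor, had 8.91 to 13.8 kb in PC3 and 0.502 to 1.53 kb in MDA-MB-231, and CDKN2A, known to be deleted in MDA-MB-231, had 1.21 to 3.23 kb in PC3 and 0 in all 9 MDA-MB-231 lists. VIM, a mesenchymal filament gene, had 2.60 to 3.11 kb in PC3 and 5.03 to 6.93 kb in MDA-MB-231.

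The scaling sets the balance of higher and lower genes, so each difference is given beside the median of all 16816 genes. By the main scaling 41.2% of the genes called in MDA-MB-231 at day 1 were higher, against 70.1% by median-of-ratios scaling, which moves the median of all genes to about 0, and 85.6% without scaling. The same 3 shares were 39.7%, 69.3% and 55.0% at day 10, 45.4%, 78.5% and 98.7% for PC3 at day 1, and 26.2%, 57.6% and 70.4% at day 10. For day 10 against day 1 they were 28.5%, 56.1% and 26.2% in PC3, while MDA-MB-231 gave 39.7%, 41.7% and 15.6%. For PC3 against MDA-MB-231 they were 32.2%, 50.8% and 35.2% untreated, 32.4%, 51.3% and 45.9% at day 1, and 28.2%, 51.8% and 50.0% at day 10.

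**Figure D1:**
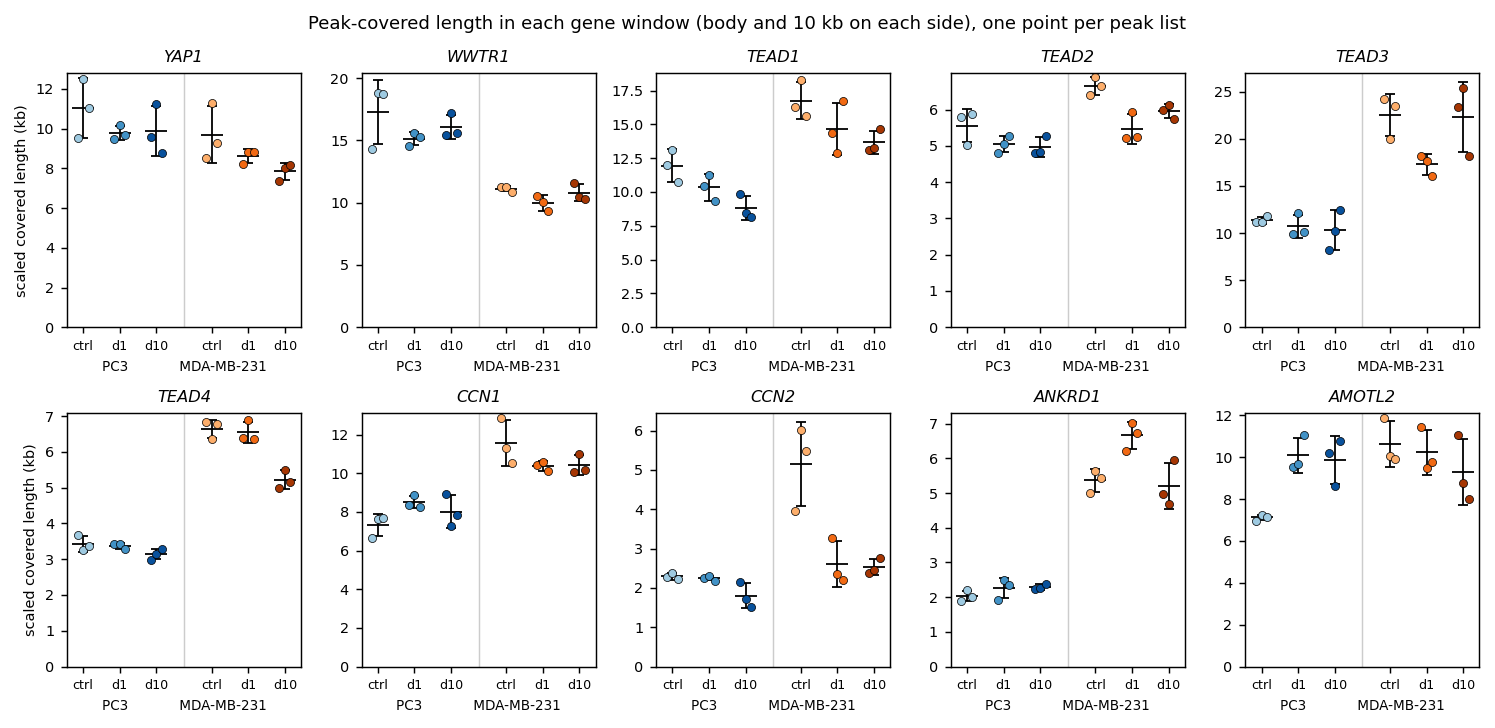
Scaled covered length in kb of each member's window (gene body and 10 kb on each side) in the 18 peak lists, with 1 panel per gene. Points are lists, and the dash and bar are the mean and SD of 3 lists, with PC3 on the left and MDA-MB-231 on the right, each in the order control, day 1, day 10. CCN2 is high in untreated MDA-MB-231 (3.96 to 6.03 kb) and AMOTL2 is low in untreated PC3 (6.97 to 7.23 kb).

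In MDA-MB-231 survivors the largest difference among the 10 genes was at CCN2, which fell at day 1 and was as low at day 10. TEAD4, a DNA-binding partner of YAP, fell at day 10. TEAD2 and TEAD3 fell and ANKRD1 rose at day 1, each by less. The coactivator genes YAP1 and WWTR1 did not pass the test at either time by the main settings. Other settings could call YAP1 lower at day 10 and WWTR1 lower at day 1. With limma and Benjamini-Hochberg adjustment over all 16816 genes, a gene was called at an adjusted p of 0.05 or less. At day 1 against control, 4 of 10 members were called, where 26.4% of all genes were. At day 10 against control, 2 of 10 were called, where 27.7% of all genes were. The members' share was above that of all genes at day 1 and below it at day 10, in a set of only 10 genes. The median log2 difference of the members was -0.15 at day 1 and -0.17 at day 10, beside -0.09 and -0.11 over all genes. The 2 comparisons share their control lists.

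Among the coactivators in MDA-MB-231, YAP1 averaged 9.69 ± 1.42 kb untreated, 8.64 ± 0.344 kb at day 1 and 7.85 ± 0.415 kb at day 10 (SD, n = 3 each). At day 10 all 3 survivor lists, at 7.38 to 8.15 kb, lay below the 3 untreated lists, at 8.54 to 11.3 kb, but the log2 difference of -0.28 had an adjusted p of 0.0612. YAP1 was called lower at day 10 over the gene body alone (-0.36, adjusted p = 0.0382) and without untreated list 1 (-0.36, adjusted p = 0.0315). It was also called with the lists of MDA-MB-231 alone (adjusted p = 0.0440), with the replicate number as a block (0.0183) and without some single PC3 lists. WWTR1 averaged 11.1 ± 0.217 kb untreated, 9.96 ± 0.614 kb at day 1 and 10.8 ± 0.689 kb at day 10. Its log2 differences were -0.15 (adjusted p = 0.217) and -0.04 (adjusted p = 0.749). On the lists cut to 50000 peaks WWTR1 was called lower at day 1 (-0.46, adjusted p = 0.0274).

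The TEAD genes code for the factors that carry YAP and TAZ to DNA. In MDA-MB-231, TEAD4 had 6.82, 6.36 and 6.77 kb in the untreated lists, 6.38, 6.89 and 6.36 kb at day 1 and 4.98, 5.51 and 5.17 kb at day 10. All day 10 lists lay below all others. The log2 difference from control was -0.32 (SE 0.07, adjusted p = 0.00260) at day 10 and -0.02 (adjusted p = 0.846) at day 1. It lost the call when each list was cut to its 50000 highest-area peaks or left unscaled, and kept it in 28 of 30 settings. Day 10 against day 1 gave -0.30 (SE 0.07, adjusted p = 0.0174), and TEAD4 was the 1 member called there, where 5.38% of all genes were. On the upper 50% of each list that difference was -0.06 (adjusted p = 0.784) and on the lists cut to 50000 peaks -0.03 (adjusted p = 0.974), and the call was lost without day 10 list 1 (adjusted p = 0.0758) or list 3 (0.0540) and without day 1 list 2 (0.0813).

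TEAD3 had 24.2, 20.0 and 23.5 kb in the untreated MDA-MB-231 lists, 18.2, 17.7 and 16.1 kb at day 1, and 23.4, 25.4 and 18.1 kb at day 10. The day 1 lists lay below the untreated ones, with a log2 difference of -0.37 (SE 0.13, adjusted p = 0.0496), and at day 10 the groups overlapped (-0.02, adjusted p = 0.923). This call is at the threshold and held in 11 of 30 settings. On the lists cut to 50000 peaks it was -0.17 (adjusted p = 0.386) and without scaling -0.22 (adjusted p = 0.440), and its adjusted p went up to 0.17 when 1 list was left out (-0.32 without day 1 list 3). The TEAD3 window also holds FANCE, RPL10A and TULP1. TEAD2 had 6.41, 6.89 and 6.65 kb in the untreated lists, 5.21, 5.93 and 5.25 kb at day 1 and 6.00, 6.13 and 5.75 kb at day 10. Its day 1 lists lay below the untreated ones and overlapped those of day 10, with a log2 difference from control of -0.26 (SE 0.08, adjusted p = 0.0174), a call that held in 21 of 30 settings and was lost by median-of-ratios (-0.15, adjusted p = 0.109) and without scaling (-0.12, adjusted p = 0.610). Without day 1 list 1 or 3 or untreated list 2 its adjusted p was 0.0637, 0.0732 and 0.0661. TEAD1 averaged 16.7 ± 1.37 kb untreated, 14.7 ± 1.94 kb at day 1 and 13.7 ± 0.865 kb at day 10 (SD, n = 3 each), with log2 differences of -0.19 (adjusted p = 0.184) and -0.28 (adjusted p = 0.0531). Among other settings, TEAD1 was called lower at day 10 over the gene body alone (-0.32, adjusted p = 0.0246) and with 50 kb on each side (-0.26, adjusted p = 0.0458). On the upper 50% of each list it was called lower at day 1 (-0.40, adjusted p = 0.0136).

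CCN2, the best known readout gene of the set, had 3.96, 6.03 and 5.47 kb in the untreated MDA-MB-231 lists, 3.27, 2.36 and 2.19 kb at day 1, and 2.37, 2.46 and 2.76 kb at day 10. All 6 survivor lists lay below the 3 untreated lists. The log2 difference was -0.86 (SE 0.14, adjusted p = 0.000354) at day 1, which is 0.551-fold, and -0.88 (SE 0.14, adjusted p = 0.000185) at day 10, which is 0.542-fold. The day 1 call held in all 30 settings tried, with log2 differences of -1.02 to -0.51. The day 10 call held in 29, and on the lists cut to 50000 peaks it was -0.62 (adjusted p = 0.0505). Day 10 and day 1 survivors had a log2 difference of -0.02 (SE 0.14, adjusted p = 0.962).

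ANKRD1 had 5.00, 5.64 and 5.44 kb in the untreated MDA-MB-231 lists, 6.22, 7.02 and 6.73 kb at day 1 and 4.97, 4.68 and 5.95 kb at day 10. The day 1 lists were all above the others. The log2 difference was 0.29 (SE 0.10, adjusted p = 0.0352) at day 1, opposite in sign to CCN2, and -0.05 (adjusted p = 0.757) at day 10. The day 1 call held in 22 of 30 settings, was 0.03 (adjusted p = 0.807) with 50 kb on each side, and was lost without day 1 list 2 (0.25, adjusted p = 0.105) or list 3 (0.28, 0.101) and without untreated list 1 (0.24, 0.119), list 2 (0.32, 0.0527) or list 3 (0.30, 0.0671). Day 10 against day 1 gave -0.33 (SE 0.10, adjusted p = 0.0521), and 0.0297 with the replicate number as a block. CCN1 averaged 11.6 ± 1.18 kb untreated, 10.4 ± 0.252 kb at day 1 and 10.4 ± 0.524 kb at day 10, and AMOTL2 10.6 ± 1.10, 10.2 ± 1.07 and 9.29 ± 1.60 kb (SD, n = 3 each). Neither passed the test by the main settings, with adjusted p from 0.214 to 0.771 against control. With 50 kb on each side both were called lower at day 10 (CCN1 -0.21, adjusted p = 0.0456, and AMOTL2 -0.26, adjusted p = 0.0142). AMOTL2 was also called lower at day 10 without day 10 list 1 (-0.32, adjusted p = 0.0469). On the upper 50% of each list AMOTL2 was called higher at day 1 (0.38, adjusted p = 0.0484).

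In PC3 survivors the readout gene called by the main settings was AMOTL2, the angiomotin-family inhibitor of YAP, which rose at both times. TEAD1 fell at day 10. The other members, CCN2 among them, were not called against control by the main settings, but some were called lower with other windows or lists. Under other scalings TEAD1 lost its call and CCN1 was called higher at both times, so that the calls at day 10, 1 higher and 1 lower by the main scaling, became 3 higher and 0 lower by median-of-ratios and 2 higher and 0 lower without scaling. At day 1 against control 1 of 10 members was called, where 13.3% of all genes were, and at day 10 against control 2 of 10, where 44.9% of all genes were. The median log2 difference of the members was -0.05 at day 1 and -0.13 at day 10, beside -0.07 and -0.16 over all genes. Day 10 against day 1 called none of the members by limma, and none had an unadjusted p under 0.05, where 7.7% of all genes were called.

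AMOTL2 had 6.97, 7.23 and 7.17 kb in the untreated PC3 lists, 9.54, 9.66 and 11.1 kb at day 1 and 10.2, 8.61 and 10.8 kb at day 10. All 6 survivor lists lay above the untreated ones. The log2 difference was 0.47 (SE 0.11, adjusted p = 0.0142) at day 1 and 0.44 (SE 0.11, adjusted p = 0.00512) at day 10. It came from outside the gene body: counted over the body alone, the differences were 0.01 (adjusted p = 0.973) and -0.10 (adjusted p = 0.583), and over 50 kb on each side they were 0.51 and 0.63. The day 1 call was also lost on the lists cut to 50000 peaks (0.54, adjusted p = 0.0550) and without day 1 list 3 (0.41, adjusted p = 0.0667).

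TEAD1 had 12.0, 13.1 and 10.7 kb in the untreated PC3 lists, 10.5, 11.2 and 9.30 kb at day 1 and 9.83, 8.47 and 8.15 kb at day 10. The day 10 lists were below all untreated ones, with a log2 difference of -0.42 (SE 0.10, adjusted p = 0.00412). The call depends on the scaling, since it was -0.23 (adjusted p = 0.126) by median-of-ratios and -0.18 (adjusted p = 0.403) without scaling. CCN2 had 2.27, 2.39 and 2.22 kb in the untreated PC3 lists, 2.26, 2.31 and 2.18 kb at day 1 and 2.16, 1.73 and 1.52 kb at day 10. Its 3 day 10 lists were the lowest, but the log2 difference of -0.29 had an adjusted p of 0.105. CCN2 was called lower at day 10 on the upper 50% of each list (-0.43, adjusted p = 0.0293) and without day 10 list 1 (-0.39, adjusted p = 0.0444).

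CCN1 had 6.66, 7.62 and 7.69 kb in the untreated PC3 lists, 8.36, 8.86 and 8.27 kb at day 1 and 8.94, 7.25 and 7.85 kb at day 10. The day 1 lists were above the untreated ones, with a log2 difference of 0.20 (adjusted p = 0.115), and at day 10 it was 0.12 (adjusted p = 0.260). By median-of-ratios CCN1 was called at day 1 (0.30, adjusted p = 0.0303) and day 10 (0.31, adjusted p = 0.00951), as it was without scaling (0.47, adjusted p = 0.00243, and 0.35, adjusted p = 0.00921). ANKRD1 averaged 2.03 ± 0.155 kb untreated, 2.25 ± 0.287 kb at day 1 and 2.28 ± 0.0804 kb at day 10 (SD, n = 3 each), and was called higher at day 10 by median-of-ratios alone (0.30, adjusted p = 0.0249). The other members in PC3 (YAP1, WWTR1, TEAD2, TEAD3 and TEAD4) had log2 differences from control of -0.18 to -0.02 at day 1 and -0.15 to -0.09 at day 10, with adjusted p of 0.124 or more. Over the gene body alone, YAP1 (-0.37, adjusted p = 0.0223), TEAD2 (-0.36, 0.0149) and TEAD4 (-0.26, 0.0101) were called lower at day 10. Without untreated list 1, WWTR1 was called lower at day 1 (-0.30, 0.0204) and day 10 (-0.22, 0.0310). TEAD2 was called lower at day 10 without untreated list 2 (-0.21, 0.0398).

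**Figure D2:**
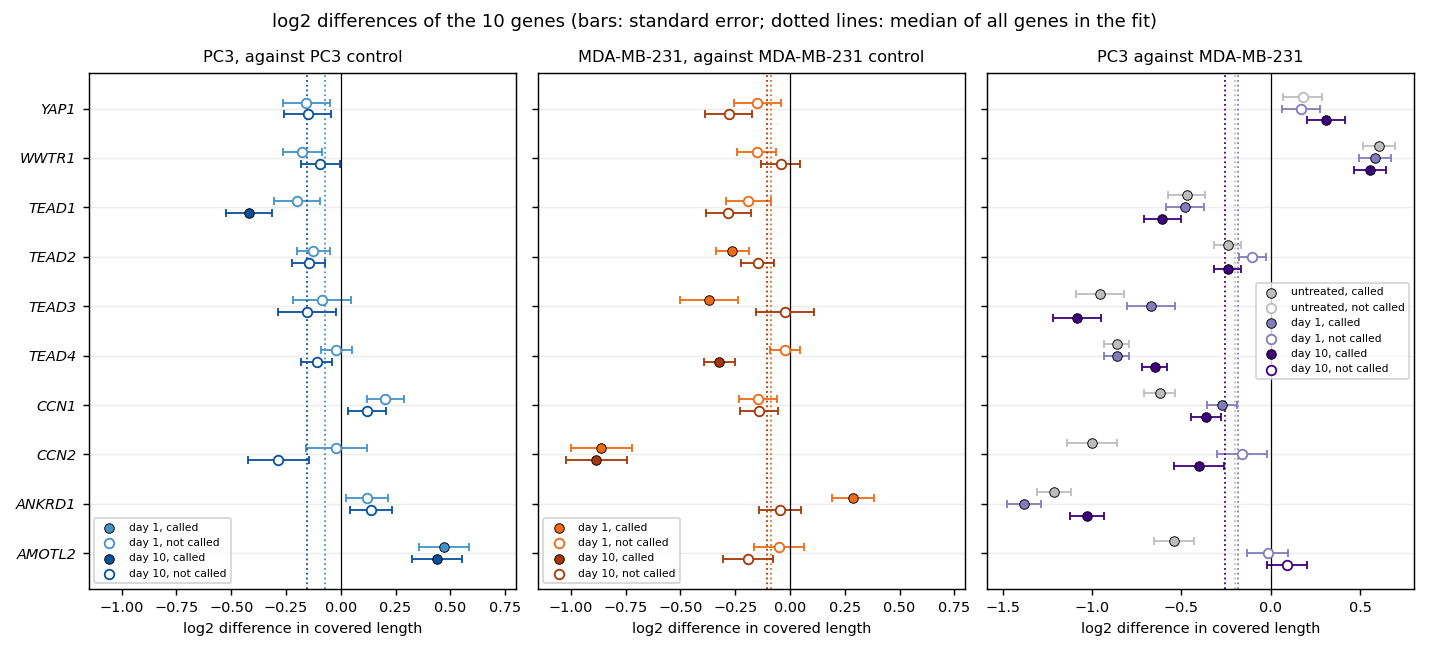
Log2 difference in scaled covered length (500 bp added) of each member, for survivors against control in PC3 and in MDA-MB-231 and for PC3 against MDA-MB-231 at each time. Filled points are called at an adjusted p of 0.05, open points are not, bars are SE, and dotted lines are the median of all genes. CCN2 at -0.86 and -0.88 in MDA-MB-231 and AMOTL2 at 0.47 and 0.44 in PC3 lie farthest from these medians among the survivor comparisons.

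By the main settings the lines differed in which members were called against control. The difference in effect was itself tested for each member as PC3 effect minus MDA-MB-231 effect. At day 1, CCN2 was the 1 member of 10 called, at 0.84 (SE 0.20, adjusted p = 0.0191), from -0.02 in PC3 and -0.86 in MDA-MB-231, where 5.3% of all genes were called. This call held in 22 of 28 settings. Over the gene body alone it was 0.45 (adjusted p = 0.185), and it was lost on the upper 50% of each list (0.70, adjusted p = 0.0786) and on the lists cut to 50000 peaks (0.77, adjusted p = 0.143). It was also lost without MDA-MB-231 day 1 list 3 (0.74, adjusted p = 0.0609) and without untreated MDA-MB-231 list 2 (0.73, adjusted p = 0.0546) or list 3 (0.79, adjusted p = 0.0518). At day 10, 2 members were called, where 16.4% of all genes were. CCN2 had 0.60 (SE 0.20, adjusted p = 0.0481), which held in 9 of 28 settings and had adjusted p of up to 0.122 when 1 list was left out (0.49 without untreated MDA-MB-231 list 2). AMOTL2 had 0.63 (SE 0.16, adjusted p = 0.0130), from 0.44 in PC3 and -0.19 in MDA-MB-231, which held in 25 of 28 settings, every list left out in turn among them. It was lost over the gene body alone (0.23, adjusted p = 0.451), on the upper 50% of each list (0.33, adjusted p = 0.213) and on the lists cut to 50000 peaks (0.49, adjusted p = 0.157). At day 1 AMOTL2 had 0.52 (SE 0.16, adjusted p = 0.0673). The other 8 members gave adjusted p of 0.105 or more at day 1 and 0.148 or more at day 10.

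The lines themselves differed at most members before treatment. Untreated PC3 had more covered length than untreated MDA-MB-231 at WWTR1 and less at all 4 TEAD genes and all 4 readout genes. YAP1 was not called. That is 9 of 10 members, where 65.2% of all genes were called. The members' median log2 difference was -0.58, beside -0.20 over all genes. At day 1, 6 of 10 were called, where 63.0% of all genes were, and at day 10, 9 of 10, where 67.9% of all genes were, with medians of -0.22 and -0.38 beside -0.19 and -0.26 over all genes. These are lines from different tissues and with different genomes, and copy number, which peak lists do not show, was not tested.

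WWTR1 had 14.3 to 18.8 kb in the 9 PC3 lists and 9.29 to 11.6 kb in the 9 MDA-MB-231 lists, with no overlap. Its log2 differences were 0.60 untreated, 0.58 at day 1 and 0.55 at day 10 (SE 0.09 each, adjusted p at most 3.52e-05). YAP1 had 8.79 to 12.5 kb in PC3 and 7.38 to 11.3 kb in MDA-MB-231, with log2 differences of 0.18 (adjusted p = 0.155), 0.17 (adjusted p = 0.180) and 0.31 (SE 0.11, adjusted p = 0.0176). By median-of-ratios YAP1 was called at all 3 times, with 0.41 untreated and 0.39 at day 1. The day 10 call held in 24 of 28 settings, was 0.17 (adjusted p = 0.187) on the lists cut to 50000 peaks and 0.18 (adjusted p = 0.246) on the upper 50%, and was lost without PC3 day 10 list 2 (0.21, adjusted p = 0.105) or MDA-MB-231 day 10 list 1 (0.27, adjusted p = 0.0651).

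TEAD4 had 2.99 to 3.68 kb in PC3 and 4.98 to 6.89 kb in MDA-MB-231. Its log2 differences were -0.86, -0.86 and -0.65 at the 3 times (SE 0.07 each). TEAD3 had 8.20 to 12.5 kb in PC3 and 16.1 to 25.4 kb in MDA-MB-231, with log2 differences of -0.95, -0.67 and -1.08 (SE 0.13 each). No list of 1 line reached the range of the other at TEAD3 or TEAD4, and both were called in all 28 settings at each time. TEAD1 had 8.15 to 13.1 kb in PC3 and 12.9 to 18.3 kb in MDA-MB-231, with log2 differences of -0.47, -0.48 and -0.61 (SE 0.10 each, adjusted p at most 0.000743). By median-of-ratios the untreated and day 1 differences at TEAD1 were -0.23 (adjusted p = 0.0944) and -0.26 (adjusted p = 0.0615), and without scaling those at day 1 and day 10 were each -0.32 (adjusted p = 0.0814 and 0.0760). TEAD2 was lower in PC3 untreated and at day 10, with -0.24 each (adjusted p = 0.00943 and 0.00922), but these calls held in 20 and 23 of 28 settings. By median-of-ratios its differences were -0.01 and 0.0541, and with 50 kb on each side they were above 0 at all 3 times.

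ANKRD1 had 1.89 to 2.48 kb in PC3 and 4.68 to 7.02 kb in MDA-MB-231, the largest separation among the readout genes. Its log2 differences were -1.21, -1.38 and -1.03 (SE 0.10 each), called in all 28 settings at each time. CCN1 was lower in untreated PC3 (-0.62, SE 0.08), a call that held in all 28 settings. It was also lower at day 1 (-0.27) and day 10 (-0.36), but those calls depend on the scaling: they were -0.05 (adjusted p = 0.594) and -0.06 (adjusted p = 0.571) by median-of-ratios, and -0.11 (adjusted p = 0.321) and -0.08 (adjusted p = 0.504) without scaling. CCN2 was lower in untreated PC3, at 2.29 ± 0.0888 kb, than in untreated MDA-MB-231, at 5.15 ± 1.07 kb (SD, n = 3 each, adjusted p = 7.64e-06). At day 1 the difference at CCN2 was -0.16 (adjusted p = 0.329), and at day 10 it was -0.40 (adjusted p = 0.0173), a call that held in 23 of 28 settings. It was -0.14 (adjusted p = 0.401) by median-of-ratios and -0.16 (adjusted p = 0.444) without scaling, and was also lost without PC3 day 10 list 3 (adjusted p = 0.0797) or MDA-MB-231 day 10 list 3 (0.0642). AMOTL2 was lower in untreated PC3, with -0.54 (SE 0.11, adjusted p = 0.000453), but the call was lost on the lists cut to 50000 peaks (-0.14, adjusted p = 0.515) and on the upper 50% of each list (-0.17, adjusted p = 0.263). At day 1 and day 10 its differences were -0.02 (adjusted p = 0.898) and 0.09 (adjusted p = 0.496). The day 10 value was called higher without scaling (0.38, adjusted p = 0.00763) and by median-of-ratios (0.40, adjusted p = 0.00537) and lower over the gene body alone (-0.45, adjusted p = 0.00834).

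Taken per length, the share of the window under peaks was highest for TEAD3 and CCN1 and lowest for WWTR1 and TEAD1 in MDA-MB-231. In PC3 it was highest for CCN1 and lowest for TEAD1 and TEAD4, at 3.04% to 4.12%, and AMOTL2 passed TEAD3 in the survivors, with 25.2% at day 1 and 24.6% at day 10. TEAD3 had 26.1%, 24.6% and 23.7% of its window covered in PC3 and 51.8%, 39.8% and 51.3% in MDA-MB-231, untreated, at day 1 and at day 10. CCN1, whose window overlaps DDAH1, had 31.6%, 36.6% and 34.6% in PC3 and 49.8%, 44.7% and 44.9% in MDA-MB-231. WWTR1 had 7.60%, 6.65% and 7.06% in PC3 and 4.88%, 4.38% and 4.74% in MDA-MB-231.

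Merging the peaks of all lists gave 232138 regions, of which 176 lay in the 10 windows. A region counts as gained if all 3 lists of the first group and none of the second overlap it, and as lost if the reverse holds. No test was made of single regions, since 3 lists against 3 cannot give an exact p below 0.1. Of the 176 regions, 49 (27.8%) were in all 18 lists, beside 19.8% of all regions. In MDA-MB-231 at day 1, 6 of 129 regions were gained and 6 lost, where 8.77% and 0.755% of all regions were. At day 10 it was 4 and 2 of 113, where 11.2% and 1.0% of all regions were, and at day 10 against day 1 it was 2 and 4 of 125, where 2.38% and 2.52% were. In PC3 it was 8 gained and 2 lost of 129 at day 1, where 4.92% and 0.465% of all regions were. At day 10 it was 14 and 1 of 129, where 11.0% and 1.38% were, and at day 10 against day 1 it was 2 and 0 of 126, where 2.67% and 1.1% were. Region lengths below are unscaled bases under peaks.

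Around CCN2 there were only 4 regions. The one over the start, chr6:131948682-131952237, which holds the printed sequence, had 2580, 3480 and 3556 bp in the untreated MDA-MB-231 lists, 2542, 2092 and 1897 bp at day 1 and 1719, 1850 and 2157 bp at day 10. It was thus present in every list and narrower in all 6 survivor lists. In PC3 it had 1702, 1729 and 1721 bp untreated, 2019, 2199 and 2048 bp at day 1 and 1700, 1537 and 1346 bp at day 10. Its peak ranked between the 77.61 and the 98.2 percentile of its list by the authors' deposited area score. A region 153 bp past the 3′ end of CCN2, chr6:131946882-131948023, had 212, 1142 and 1094 bp in the untreated MDA-MB-231 lists and no peak in the other 15. This was a low-ranking peak, at the 3.27 to 40.38 percentile, and it drops out when only the upper 50% of each list is kept. A region upstream of the start, chr6:131954207-131955404, had 286, 1051 and 897 bp untreated, 471, 253 and 459 bp at day 1 and 261, 251 and 452 bp at day 10 in MDA-MB-231. At these regions untreated list 1 was the shortest of its group.

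Around AMOTL2 the PC3 gain lay mainly at the 3′ side of the gene. The region chr3:134353175-134355723, which covers that end, had no peak in the 3 untreated PC3 lists, 1281, 1541 and 1827 bp at day 1 and 1568, 1932 and 2321 bp at day 10. It ranked at the 53.16 to 78.63 percentile at day 1 and the 91.54 to 92.51 percentile at day 10. The same region was already under peaks in untreated MDA-MB-231, with 1035, 1392 and 1526 bp, and had 2523, 2491 and 2541 bp at day 1 and 1773, 1703 and 1548 bp at day 10. The next region, chr3:134352239-134352997, had a peak in none of the MDA-MB-231 lists and none of the untreated PC3 lists, 677, 759 and 683 bp in PC3 at day 1 and 589, 680 and 706 bp at day 10. The region over the AMOTL2 start, chr3:134372962-134375858, went the other way in PC3, with 2364, 2289 and 2230 bp untreated, 1771, 2059 and 1895 bp at day 1 and 1759, 1811 and 1510 bp at day 10. In MDA-MB-231 it had 2507, 2410 and 2780 bp untreated, 1592, 1336 and 1535 bp at day 1 and 1980, 1942 and 2020 bp at day 10. All 12 survivor lists were narrower there than the untreated lists of their line.

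**Figure D3:**
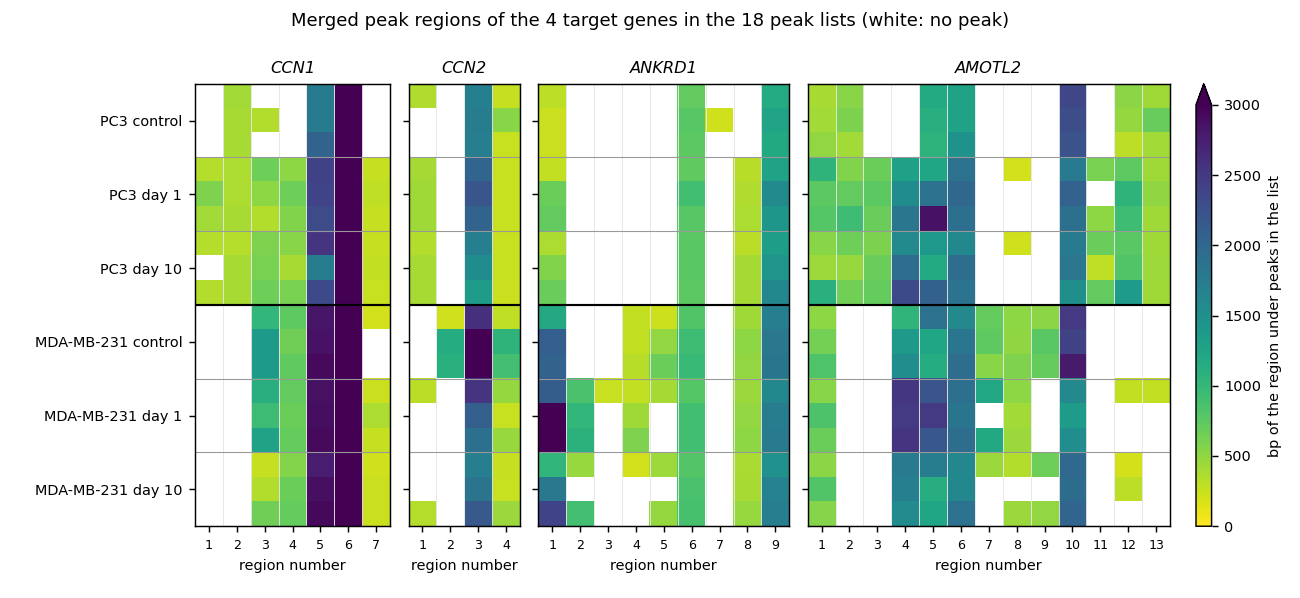
Regions in the windows of CCN1, CCN2, ANKRD1 and AMOTL2 (columns, in genome order) by peak list (rows, PC3 above MDA-MB-231, each as control, day 1, day 10). Colour is the unscaled bp of the region under peaks, and white is no peak. The region at the 3′ end of AMOTL2 is white in the 3 untreated PC3 lists and filled in all others, and the region past the 3′ end of CCN2 is filled in the 3 untreated MDA-MB-231 lists alone.

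CCN1 and ANKRD1 showed gained regions of the same kind. The region chr1:85574093-85574843, 5.92 kb below the CCN1 body in coordinate and within DDAH1, had no peak in untreated PC3, 504, 661 and 563 bp at day 1 and 530, 392 and 600 bp at day 10, while all 9 MDA-MB-231 lists had 553 to 743 bp. The region chr1:85585864-85586319, 1.91 kb above the CCN1 body, had no peak in untreated PC3 and 255 to 291 bp in the 6 survivor lists. The region chr10:90929164-90929698, 8.08 kb upstream of ANKRD1, had none in untreated PC3, 326, 361 and 371 bp at day 1 and 309, 406 and 410 bp at day 10, and a peak in all 9 MDA-MB-231 lists. In MDA-MB-231 the ANKRD1 body gained chr10:90915017-90916513 at day 1, with no peak untreated, 859, 1014 and 1071 bp at day 1 and 465, 0 and 898 bp at day 10. No PC3 list had a peak there. None of these gains at CCN1 and ANKRD1 held when each list was cut to its upper 50% or to its 50000 highest-area peaks. At the 3′ end of ANKRD1, chr10:90911219-90914458 had 1187, 2107 and 2040 bp untreated, 2117, 3182 and 3209 bp at day 1 and 1029, 1796 and 2391 bp at day 10 in MDA-MB-231.

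Of the 8 member regions gained in PC3 at day 1, 4 (50.0%) were present in all 9 MDA-MB-231 lists, beside 18.3% of all 8138 regions gained there. At day 10 it was 5 of 14 (35.7%), beside 11.8% of all 19924. In MDA-MB-231, 0 of 6 regions gained at day 1 and 1 of 4 gained at day 10 were present in all 9 PC3 lists, beside 23.4% and 26.4% of all gained regions. These counts are small, and with the upper 50% of each list the PC3 gains numbered 5 at day 1 and 6 at day 10. Most of those were other regions. Of the PC3 gains on the full lists, only the AMOTL2 region chr3:134353175-134355723 was also gained on the upper 50% at day 1. At day 10 it was that region and chr19:49333381-49334413 in the TEAD2 window.

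Among the TEAD genes, the TEAD3 body lost chr6:35490179-35492140 in MDA-MB-231 at day 1, with 1300, 824 and 1590 bp untreated, no peak at day 1 and 1377, 1287 and 0 bp at day 10. This loss did not hold on the upper 50% of each list or on the lists cut to 50000 peaks. Nor did it hold where a peak had to cover 50% of the region. The neighbouring chr6:35493236-35494690 had 1036, 1346 and 1455 bp untreated, 429, 472 and 461 bp at day 1 and 1196, 1043 and 545 bp at day 10. The region over the TEAD3 start, chr6:35495219-35499424, separated the lines, with 589 to 2251 bp in PC3 and 3062 to 4206 bp in MDA-MB-231. Its percentile by area was 76.41 to 93.12 in untreated PC3, 63.25 to 69.38 at day 1 and 45.34 to 61.19 at day 10, while it was 92.81 to 99.79 in the MDA-MB-231 lists. Much of the TEAD3 window's covered length lay in chr6:35467143-35477442, which overlaps the RPL10A gene of a ribosomal protein.

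At TEAD1, the region at the lower end, chr11:12673613-12675495, had 1694, 1619 and 1874 bp in untreated MDA-MB-231, 976, 879 and 922 bp at day 1 and 1048, 964 and 1203 bp at day 10. In PC3 it had 932, 912 and 919 bp untreated, 722, 944 and 864 bp at day 1 and 692, 713 and 713 bp at day 10. In MDA-MB-231 at day 1 TEAD1 lost 3 regions just inside that end and gained 3 others. None of these changes held on the upper 50% of each list or on the lists cut to 50000 peaks. At TEAD4, the region at the lower end, chr12:2957875-2961609, had 2121 to 2670 bp in PC3 and 2526 to 3699 bp in MDA-MB-231. TEAD2 had 5 regions, 4 of them in all 18 lists. The fifth, chr19:49333381-49334413 in the neighbouring SLC6A16, was gained in PC3 at day 10, with 734, 1023 and 1020 bp.

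Some regions had a peak in 1 line alone, counted here from any list of that line. In the WWTR1 window 21 of 44 regions had a peak in PC3 and in no MDA-MB-231 list, and 2 the reverse. In the YAP1 window it was 10 of 26 and 1, in the TEAD1 window 6 of 48 and 22, and in the TEAD4 window 1 of 12 and 7. Over all regions, 35.5% had a peak in PC3 alone and 17.5% in MDA-MB-231 alone, and over the 176 member regions 25.0% and 23.3%. The PC3 share was 47.7% at WWTR1, while at YAP1 it was 38.5%, near that of all regions. Regions in all 9 PC3 lists and no MDA-MB-231 list were fewer. They numbered 1 of 44 at WWTR1 (2.27%) and 2 of 26 at YAP1 (7.69%), beside 6.14% of all regions. In untreated cells 14 of 132 member regions were in PC3 alone by the rule of 3 lists against none and 18 in MDA-MB-231 alone, where 20.1% and 9.7% of all regions were.

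The main WWTR1 start region, chr3:149656254-149659303, had 2733, 3026 and 2910 bp in untreated MDA-MB-231, 2080, 2531 and 1505 bp at day 1 and 2692, 2321 and 2876 bp at day 10. An alternative listed start, chr3:149703063-149703363, had a peak in all 9 PC3 lists, while in MDA-MB-231 it had none untreated, 0, 0 and 199 bp at day 1 and 203, 263 and 229 bp at day 10. Within the gene, chr3:149558060-149558697 was under peaks in all 9 PC3 lists, at 392 to 634 bp, and in no MDA-MB-231 list. In PC3 survivors the gene gained chr3:149555713-149556352, with 364, 523 and 476 bp at day 1 and 365, 495 and 358 bp at day 10. It lost chr3:149615797-149616205, which had 356, 409 and 364 bp in the untreated PC3 lists and no peak in the survivors. Neither change held on the upper 50% of each list or on the lists cut to 50000 peaks.

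The YAP1 start region, chr11:102109400-102112378, was in all 18 lists with 2204 to 2929 bp and at the 88.85 to 99.22 percentile by area. Past the 3′ end of YAP1, chr11:102240571-102241636 had no peak in untreated PC3, 287, 764 and 890 bp at day 1 and 315, 927 and 926 bp at day 10, and was in all 9 MDA-MB-231 lists. In the YAP1 body, chr11:102220505-102221301 was in all 9 PC3 lists, and in MDA-MB-231 it had 303, 306 and 446 bp untreated, 461, 439 and 504 bp at day 1 and no peak at day 10. Its loss at day 10 against control did not hold on the upper 50% of each list or on the lists cut to 50000 peaks. Nor did it hold where a peak had to cover 50% of the region. The region chr11:102115586-102115939 was in all 9 PC3 lists, at 265 to 354 bp, and in no MDA-MB-231 list.

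**Figure D4:**
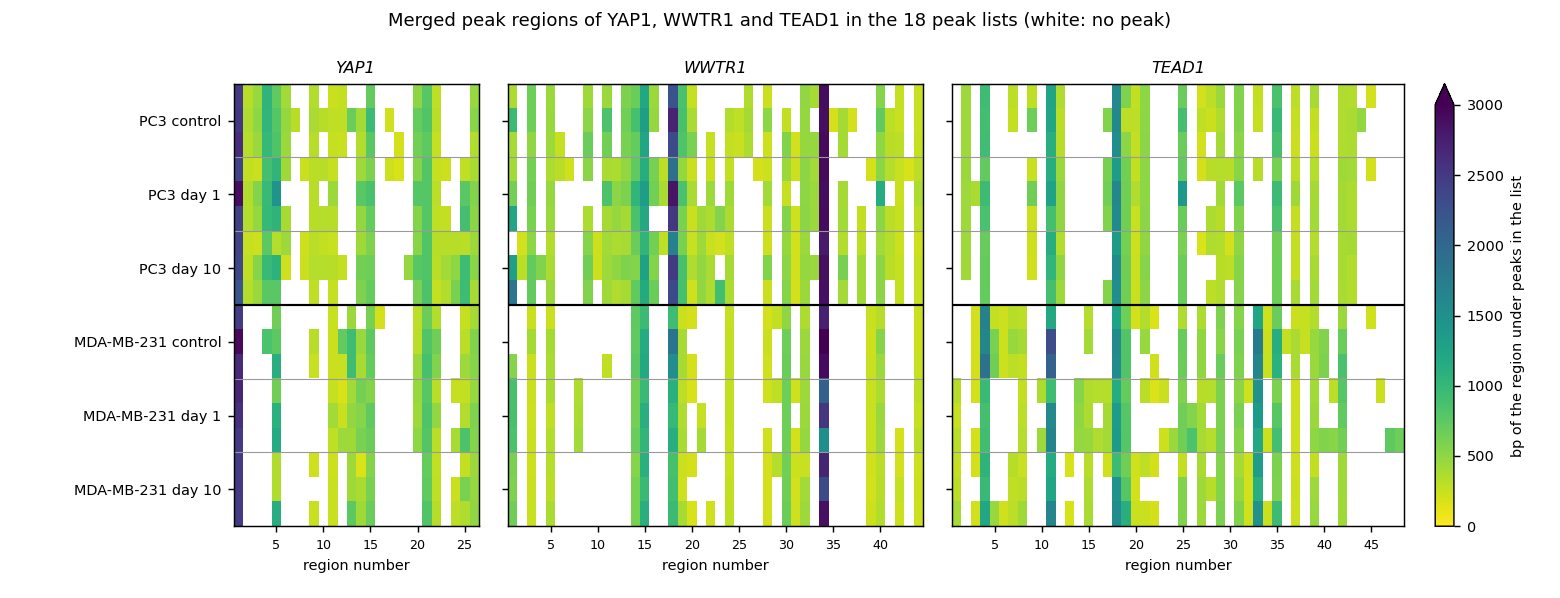
Regions in the windows of YAP1, WWTR1 and TEAD1 (columns, in genome order) by peak list (rows, PC3 above MDA-MB-231, each as control, day 1, day 10). Colour is the unscaled bp of the region under peaks, and white is no peak. WWTR1 has 21 of 44 regions in at least 1 PC3 list without any MDA-MB-231 list, and TEAD1 has 22 of 48 the other way round.

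The rest of the pathway was read from a list of Hippo kinases and regulators, of which 28 of 29 were tested, and a list of 25 further YAP and TAZ targets, which share LATS2 and PTPN14. Values for both gene lists are given by the main scaling alone. Of all genes called in PC3 at day 10, 26.2% were higher by that scaling, against 57.6% by median-of-ratios and 70.4% without scaling. As background, MDA-MB-231 survivors had 10.9% of all genes called higher and 15.5% lower at day 1, with 11.0% and 16.7% at the later time. PC3 survivors had 6.02% higher and 7.24% lower at day 1, with 11.8% and 33.1% at the later time, and untreated PC3 had 21.0% higher and 44.3% lower than untreated MDA-MB-231. Among the regulators, 1 rose and 5 fell in MDA-MB-231 at day 1 and 1 and 7 at day 10 (median log2 differences -0.11 and -0.09). In PC3, 2 rose and 4 fell at day 1 and 2 and 13 at day 10 (medians -0.10 and -0.24, beside -0.07 and -0.16 over all genes). NF2, which codes for the upstream tumour suppressor merlin, fell in all 4 comparisons, with log2 differences at day 1 and day 10 of -0.39 and -0.54 in PC3 and -0.31 and -0.54 in MDA-MB-231. TAOK1, a kinase that activates MST, rose in MDA-MB-231 at both times, with 0.55 and 0.69. LATS2, the kinase that phosphorylates YAP and is itself a target, fell in PC3 at day 10, with -0.58 (SE 0.11, adjusted p = 0.000568). PTPN14, a phosphatase that binds YAP, fell in PC3 at day 1, with -0.24 (adjusted p = 0.0460), and in MDA-MB-231 at both times, with -0.33 and -0.41.

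Among the further targets, 3 rose and 4 fell in MDA-MB-231 at day 1 and 0 and 7 at day 10 (medians -0.07 and -0.24). In PC3, 3 rose and 1 fell at day 1 and 3 and 4 at day 10 (medians -0.05 and 0.00). F3, which codes for tissue factor, rose in MDA-MB-231 at day 1 with a log2 difference of 0.47, and FJX1 fell, with -0.40. AXL, a receptor tyrosine kinase, and CCDC80 fell there at day 10, with -0.50 and -0.51. In PC3, CAVIN2 rose by 0.54 at day 1 and 0.51 at day 10, and the kinase gene NUAK2 rose by 0.46 at day 10. CAVIN2 was little covered there, with 0.387 ± 0.0478 kb untreated, 0.790 ± 0.0729 kb at day 1 and 0.767 ± 0.0535 kb at day 10 (SD, n = 3 each). Its untreated mean is below the 500 bp of the filter. Between untreated lines, 5 targets were higher and 10 lower in PC3 (median -0.03), AXL at -1.44 and F3 at -1.32 among them. Of the regulators, 7 were higher and 10 lower (median -0.11), VGLL1 at 1.43 and the cadherin gene FAT4 at -1.84 among them. VGLL1 had 1.46 ± 0.174 kb in untreated PC3 and 0.226 ± 0.0311 kb in untreated MDA-MB-231 (SD, n = 3 each). The MDA-MB-231 mean is below the 500 bp that a gene needed in 3 lists to be tested, so this difference starts from the floor.

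As a description, the genes of other chromosomes whose log2 covered length followed CCN2 most closely over the 18 lists were SMIM44 (Pearson r = 0.943), HDLBP (0.929) and POLN (0.918). For AMOTL2 they were TGM2 (0.877), SH3RF3 (0.862) and HAAO (0.859), and for YAP1 they were RBMS3 (0.898), RAD54B (0.897) and WLS (0.885). The closest gene was at 0.987 for TEAD4 (IGFBP4), 0.983 for ANKRD1 (TNFSF13B) and 0.981 for WWTR1 (TRMT5). The points share the split between lines and the length of each list.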

How the data were processed

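ATAC-seq peak lists of 18 biological replicates were analysed, on build GRCh38 per the labels. Tools listed in the submitters' processing notes, without their roles, are Genrich 0.6.2, SAMtools 1.6, Bowtie2 2.3.5.1, Picard, R 4.4.1 and FastQC 0.12.1. The sources used here do not say how the 3 libraries of a biological replicate were joined. The deposited area score of each peak, at least 200, served only to rank peaks within a list. Covered length per gene (RefSeq GRCh38.p14 body, flanked by 10 kb) was brought to a common total per list and transformed as log2(bp + 500). All 18 lists entered 1 fit of limma 3.58.1 (R 4.3.3) with a variance trend and 12 residual degrees of freedom. It held 16816 genes, each with 500 bp or more in 3 lists or more. Fold changes on this scale understate those of genes with little coverage. Tables and plots were made with Python 3.11.15, numpy 2.4.6, pandas 2.3.3 and matplotlib 3.10.9, and the fit was tested on simulated data. The members, pathway lists and alternatives were chosen with earlier results of these data known, and leaving out other genes' bodies was added after seeing the data. All members were described, up to 4 called genes per pathway list and comparison by smallest p, the 3 most correlated genes per member, and up to 3 gained or lost regions per member with its start region. Further regions (the one upstream of CCN2, the ANKRD1 3′ end, the gene-body regions kept in 1 line, and those of TEAD1 and TEAD4 at the lower gene end) were chosen after their values were seen. The p-values measure only the spread between these lists. Same-numbered lists deviated together for MDA-MB-231 day 1 against control (r 0.193 to 0.389), day 10 against day 1 (0.197 to 0.419) and PC3 day 10 against day 1 (0.131 to 0.345). These passed a cut of 0.1 on the lowest r, and the cut is arbitrary. Below it were MDA-MB-231 day 10 against control (0.0564 to 0.330) and PC3 against control at day 1 (-0.0444 to 0.0999) and day 10 (0.0289 to 0.253).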

Additional observations from a re-analysis of the deposited data

Results flagged for a closer look

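The survivor effect of CCN2 differed between the lines by the interaction term of the limma fit, as a log2 difference of 0.84 at day 1 (adjusted p = 0.0191) and 0.60 at day 10 (adjusted p = 0.0481), PC3 effect minus MDA-MB-231 effect. The effect of AMOTL2 differed by 0.63 at day 10 (adjusted p = 0.0130). No explanation was tested.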

How the results depend on the processing

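Of 3200 values for members under other settings, 942 of those for the 37 called differences kept sign and call, 109 lost the call and 5 reversed. Of those for uncalled differences 2080 stayed uncalled, 61 became called and 3 reversed. Reversed values were AMOTL2 in MDA-MB-231 at day 1 with the upper 50% of each list by area (0.38), AMOTL2 over the gene body alone in PC3 at day 10 (-0.10) and between lines at day 10 (-0.45), and TEAD2 between lines with 50 kb on each side (0.0325 untreated, 0.20 at day 1, 0.0538 at day 10) and at day 10 without scaling (0.0365) or by median-of-ratios (0.0541). The cause was not tested.

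Members called changed as follows. With the 50000 highest-area peaks they numbered 2 (MDA-MB-231 day 1), 0 (day 10), 0 (day 10 against day 1), 0 (PC3 day 1) and 5 (lines at day 10). With the upper 50% they numbered 0 for MDA-MB-231 day 10 against day 1. Over the gene body they numbered 4 (MDA-MB-231 day 10, all lower), 0 (PC3 day 1) and 4 (PC3 day 10, all lower), and with 50 kb 2 (MDA-MB-231 day 1) and 5 (day 10). Without scaling they numbered 1 at each time in MDA-MB-231 and 2 in PC3 at day 1, and by median-of-ratios 2 in MDA-MB-231 and 2 in PC3 at day 1. With the lists of MDA-MB-231 alone they numbered 4 at day 10, and with 2000 bp added 2 for day 10 against day 1. With the replicate block they numbered 4 in MDA-MB-231 at day 10, where YAP1 (adjusted p = 0.0183) and TEAD1 (0.0330) joined, and 2 for day 10 against day 1. Same-numbered lists passed the cut of 0.1 on r for day 10 against day 1, but not for day 10 against control (0.0564 to 0.330). The block changed no other count. Leaving out 1 list gave 1 to 4 members called in MDA-MB-231 at day 1, 2 to 4 at day 10, 0 to 2 for day 10 against day 1, 0 to 2 in PC3 at day 1, 2 to 3 at day 10, 0 for day 10 against day 1, and 8 to 10, 6 and 8 to 9 between lines untreated, at day 1 and at day 10.

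With the 50000 highest-area peaks, regions gained and lost in MDA-MB-231 were 0 gained at day 1, 0 gained and 4 lost at day 10 and 2 lost between times. In PC3 they were 2 gained and 0 lost at day 1, 2 gained and 3 lost at day 10 and 0 gained between times. With the upper 50% they were 1 gained and 0 lost at day 1, 1 gained at day 10 and 0 gained and 1 lost between times in MDA-MB-231, and 5 gained and 0 lost at day 1, 6 gained at day 10 and 1 gained between times in PC3, with 9 lost between untreated lines. The regions counted under either cut need not be those counted on the full lists. Where a peak had to cover 50% of a region, 1 was lost at day 10 and 1 gained between times in MDA-MB-231, and in PC3 1 was lost at day 1 and 1 gained and 1 lost between times. Leaving out 1 list gave 6 to 14 gained and 6 to 7 lost in MDA-MB-231 at day 1, 4 to 6 and 2 to 5 at day 10, 2 to 5 and 4 to 9 between times, 8 to 11 and 2 to 3 in PC3 at day 1, 14 to 18 and 1 to 3 at day 10, 2 to 4 and 0 to 1 between times, and 15 to 17 and 18 to 20 between untreated lines. Peak lists hold no counts, so small or low-ranking peaks such as the one past CCN2 may be present below the threshold of a list, and covered length mixes the width and the number of peaks.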
